A study of Mus musculus with 8 samples.

Results

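Hmga1, Hmga2, Lin28a, Lin28b, Igf2bp1, Igf2bp2, Igf2bp3 and Trim71 are genes of chromatin and RNA-binding proteins that mark the early embryo and its stem cells. They were taken by their symbols, 8 of the 23997 gene symbols listed in each RNA-seq library. The libraries came from NS/PCs of the mouse, neural stem/precursor cells that divide in the embryonic brain and form neurons first and glia later. They were ICR cells of the E11.5 telencephalon (the stage label reads E11), plated as an adherent primary culture in medium with basic fibroblast growth factor at 10 ng/mL. One group of 3 libraries is Nfia-transduced, carrying an added Nfia, a transcription factor gene of the nuclear factor I family, and the other group of 3 libraries is control. RNA of both groups was collected 3 days after transduction. The labels name neither a vector nor its promoter, do not say what the control cells received, and leave unstated whether each library is a culture of its own. The p-values thus rest on a spread between libraries that may be technical only.

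LIN28A and LIN28B bind the precursors of let-7 microRNAs and hinder their maturation. Mature let-7 in turn represses messages that include those of LIN28, HMGA2 and IGF2BP1, so that LIN28 and let-7 oppose each other as development proceeds. HMGA1 and HMGA2 bind AT-rich DNA and loosen chromatin. In mouse neural precursors they are high early, favour the making of neurons and decline with age, and IGF2BP2 acts downstream of them there. NFIA is known as a driver of the later, glia-forming phase, so the question for these genes was whether added Nfia lowers the early set.

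Values are FPKM, fragments scaled to transcript length and to the mapped total, as the authors deposited them. Since FPKM is per length, levels can be set side by side between genes. A difference is the Nfia mean minus the control mean of log2(FPKM + 1), a scale that shrinks the changes of low genes, and was tested with limma over the 12537 genes averaging 1 FPKM or more. A gene was called at a Benjamini-Hochberg adjusted p under 0.05 over all of these genes. The library totals lay between 474010 and 511700 FPKM, and the files hold no read counts, so the absolute depth is unknown. Nfia itself was 69.0, 85.6 and 104 FPKM in the Nfia libraries, against 19.8, 23.9 and 22.2 FPKM in the control libraries. The precursor markers Nes, Sox2, Vim, Pax6, Fabp7, Sox1, Prom1, Hes1 and Hes5 were above 0 in every library, with sums of 5375 to 6460 FPKM in the Nfia group and 5459 to 5939 FPKM in the control group. These sums consist mostly of Vim and Fabp7.

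The early set was not lower as a whole. Of the 8 genes, 6 passed the filter on low values, and 3 of these, Igf2bp2, Igf2bp3 and Hmga2, rose with Nfia. Among all genes tested 31.3% were called, 16.1% higher and 15.1% lower. None of the 6 genes was called lower by limma. At an unadjusted p under 0.05, 5 were higher and 0 lower, and the share of all tested genes at that threshold was not counted. The Nfia libraries all lay above the control libraries in 4 of the 6 genes, a pattern found in 24.7% of all tested genes, and all below them in 1, against 22.9%. The median difference of the 6 genes was 0.25, and that of all tested genes 0.01. The 1 gene with all Nfia libraries below was Lin28b, which was not called. Lin28a and Trim71 had means of 0.150 and 0.312 FPKM over the 6 libraries and stood below the filter. In the limma fit with no filter, Lin28a was called lower (adjusted p = 0.00383), at levels close to 0, as were 9.55% of all genes in that fit.

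**Figure D1:**
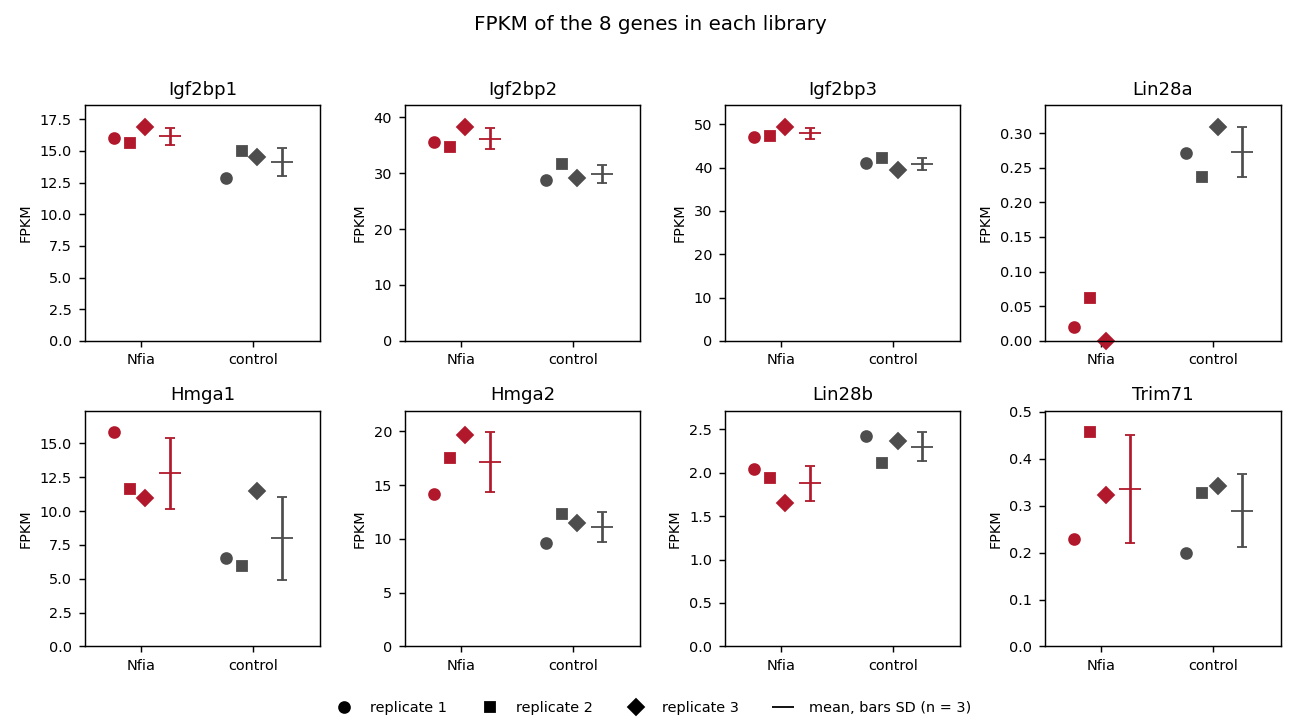
FPKM (vertical axes, each starting at 0) of the 8 genes in the Nfia and control libraries, with a point for each library, its shape giving the replicate number, and a dash and bars for mean and SD. The Nfia points lie above the control points for Igf2bp1, Igf2bp2, Igf2bp3 and Hmga2 and below them for Lin28a and Lin28b. No mean is drawn for Lin28a in the Nfia group, where 1 library is listed at 0.

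The IGF2BP proteins bind messages in the cytoplasm and govern their stability, transport and translation. Igf2bp3 was the most abundant of the 8 genes in both groups. It had 47.1, 47.3 and 49.4 FPKM in the Nfia libraries, against 41.1, 42.1 and 39.4 FPKM in the control libraries. The groups did not overlap, and the libraries within a group lay close together. The rise was 1.17-fold (log2 difference 0.23, SE 0.04, adjusted p = 0.00936). The call held when any single library was left out.

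Igf2bp2 was next in level. It had 35.6, 34.7 and 38.3 FPKM in the Nfia libraries, against 28.8, 31.7 and 29.2 FPKM in the control libraries. Here too every Nfia library was above every control library. The rise was 1.21-fold (log2 difference 0.27, SE 0.06, adjusted p = 0.0136), and its call ended without control 3 (adjusted p = 0.0525).

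Igf2bp1 is a target of let-7 and is known to keep fetal neural stem cells in an early state. It had 16.0, 15.6 and 16.9 FPKM in the Nfia libraries, against 12.9, 15.0 and 14.5 FPKM in the control libraries. The groups did not overlap, but the gap between the lowest Nfia and the highest control library was small beside the spread within the control group. The difference of 0.18 (SE 0.07) did not pass the test (adjusted p = 0.0744). In GRCm38, Igf2bp1 lies on chromosome 11 from 95957163 to 96005944, Igf2bp2 on chromosome 16 from 22059009 to 22163299 and Igf2bp3 on chromosome 6 from 49085218 to 49215469. The span of Igf2bp3 overlaps that of 3 other RefSeq genes, among them Malsu1, at 20.5 to 26.0 FPKM in the Nfia libraries and 21.5 to 22.2 FPKM in the control libraries. No source states whether reads were counted by strand, so reads of overlapping genes on the opposite strand may not have been told apart.

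HMGA2 and HMGA1 are small architectural chromatin proteins with AT-hook domains. Hmga2 had 14.2, 17.5 and 19.7 FPKM in the Nfia libraries, against 9.61, 12.3 and 11.47 FPKM in the control libraries. Each Nfia library was above all control libraries, and the first replicate was the lowest of its group in both groups. Hmga2 rose 1.54-fold, to 17.1 ± 2.75 FPKM with Nfia, against 11.1 ± 1.37 FPKM in control (SD, n = 3 each; log2 difference 0.57, SE 0.13, adjusted p = 0.0167). Of all tested genes, 95.8% had a lower difference. The call ended without Nfia 2, Nfia 3, control 1 or control 3 (adjusted p = 0.0660, 0.0533, 0.0567 and 0.0513).

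Hmga2 lies on chromosome 10 from 120361268 to 120476469 in GRCm38, where its span overlaps that of 5 RefSeq noncoding genes. One of them, 9230105E05Rik, is listed in the files, at 0.196 to 0.261 FPKM in the Nfia libraries and 0 to 0.0797 FPKM in the control libraries. The pseudogene row Hmga2-ps1, on chromosome 1 from 176834624 to 176836133, also rose. It had 3.42, 3.82 and 3.94 FPKM in the Nfia libraries, against 2.49, 2.22 and 2.67 FPKM in the control libraries (log2 difference 0.45, SE 0.09, adjusted p = 0.00922). How reads that fit both Hmga2 and its pseudogene were assigned is not stated, so these rows may share reads.

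Hmga1 had 15.8, 11.6 and 11 FPKM in the Nfia libraries, against 6.56, 5.91 and 11.51 FPKM in the control libraries. Control 3 lay above Nfia 3 and near Nfia 2, so the groups overlapped. The mean was 1.60-fold higher with Nfia, but the difference did not pass the test (log2 difference 0.65, SE 0.24, adjusted p = 0.0813). Without control 3 it passed (log2 difference 0.92, adjusted p = 0.0172). How reads that fit several places in the genome were assigned is not stated, which leaves the level of Hmga1 uncertain. Hmga1 lies on chromosome 17 from 27556574 to 27563672 in GRCm38.

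Of the LIN28 genes, Lin28b was the more abundant. It had 2.04, 1.94 and 1.65 FPKM in the Nfia libraries, against 2.42, 2.11 and 2.36 FPKM in the control libraries. The Nfia libraries were all below the control libraries, but the difference of -0.20 (SE 0.10) did not pass the test (adjusted p = 0.166). Lin28b lies on chromosome 10 from 45376617 to 45486314 in GRCm38.

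Lin28a, the paralog best known from pluripotent cells, was close to 0 and lower with Nfia. It had 0.0204 and 0.0620 FPKM in Nfia 1 and Nfia 2 and was listed at 0 in Nfia 3, against 0.271, 0.237 and 0.309 FPKM in the control libraries. Every control library was several times above every Nfia library, while 17.9% of the 19184 genes of the fit with no filter had all Nfia libraries below all control libraries. In that fit the difference was -0.31 (SE 0.04, adjusted p = 0.00383), and 19.3% of the genes were called, 9.74% higher and 9.55% lower. With a pseudocount of 0.1, chosen after seeing the data, it was -1.57 (adjusted p = 0.00542). At such levels a value may rest on a few fragments, and the files hold no counts to say how many. Without both first replicates, the difference of -0.30 did not pass the test (adjusted p = 0.0776). Lin28a lies on chromosome 4 from 134003330 to 134019196 in GRCm38.

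Trim71, a ubiquitin ligase and RNA-binding protein known as LIN-41 in the worm and repressed by let-7, had 0.228, 0.456 and 0.322 FPKM in the Nfia libraries, against 0.200, 0.327 and 0.341 FPKM in the control libraries. The groups overlapped (difference 0.05, SE 0.08, adjusted p = 0.713 with no filter). Trim71 lies on chromosome 9 from 114511268 to 114564369. Markers of pluripotent cells, in which Lin28a and Trim71 are typically high, were near 0. The 6 genes Pou5f1, Nanog, Zfp42, Dppa5a, Dppa3 and Tdgf1 summed to 0.0665 to 0.359 FPKM in the Nfia libraries and 0.0452 to 0.371 FPKM in the control libraries, and Zfp42, Dppa3 and Tdgf1 were listed at 0 in all libraries.

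By level the order with Nfia was Igf2bp3, Igf2bp2, Hmga2, Igf2bp1, Hmga1, Lin28b, Trim71 and Lin28a. In control it was the same except that Igf2bp1, with a mean of 14.2 FPKM, stood above Hmga2, with 11.1 FPKM. With Nfia, Hmga2 was not separated from Igf2bp1 beyond the spread of the libraries, nor Igf2bp1 from Hmga1. In control, Hmga2 was not separated from Hmga1, nor Trim71 from Lin28a, while Igf2bp1 lay above Hmga2 in every library. Among the genes tested, 79.3% had a lower control mean than Igf2bp3, 42.4% a lower one than Hmga2 and 10.0% a lower one than Lin28b.

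Promoter sequences are shown for the 3 genes that rose, since the factor added to these cells binds DNA. They are RefSeq windows of GRCm38.p6 from 250 bases before to 50 bases after a listed start of the gene, which exist here for 7 of the 8 genes. For Igf2bp2 and Hmga2 that start is the outer end of the gene span given above. For Igf2bp3 it lies 515 bases inside the span, so that window is within the gene as annotated here, and the starts of the Lin28a and Lin28b windows lie 380 and 16113 bases inside. NFI proteins bind the palindrome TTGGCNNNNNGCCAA and, more weakly, its single core TTGGC, which reads GCCAA on the other strand. The full palindrome stood in none of the 7 genes' windows and in 0.0365% of the 32851 windows of all genes. The core stood, on either strand, in the window of 1 of the 7 genes, Trim71, and in 46.7% of all windows. It was absent from the 3 windows printed. Capitals mark the hexamer CACGTG, an E-box that MYC and related factors bind, searched after reading the windows. It occurred 2 times in the Igf2bp3 window, starting 23 bases before and 5 bases after the start that the window is placed by, not the outer end of the span. At least 1 CACGTG stood in 7.15% of all windows and at least 2 in 0.594%, and among the members the Lin28b window also held 1. These are matches of letters, not shown to be sites, and a window without a match says nothing about binding elsewhere.
Igf2bp2, chr16:22163250-22163549, minus strand: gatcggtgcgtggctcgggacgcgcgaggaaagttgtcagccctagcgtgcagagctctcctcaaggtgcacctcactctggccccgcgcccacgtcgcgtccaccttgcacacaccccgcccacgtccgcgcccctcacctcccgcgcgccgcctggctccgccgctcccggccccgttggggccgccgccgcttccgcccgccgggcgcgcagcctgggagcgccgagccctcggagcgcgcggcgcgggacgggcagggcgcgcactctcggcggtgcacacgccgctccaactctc
Igf2bp3, chr6:49214905-49215204, minus strand: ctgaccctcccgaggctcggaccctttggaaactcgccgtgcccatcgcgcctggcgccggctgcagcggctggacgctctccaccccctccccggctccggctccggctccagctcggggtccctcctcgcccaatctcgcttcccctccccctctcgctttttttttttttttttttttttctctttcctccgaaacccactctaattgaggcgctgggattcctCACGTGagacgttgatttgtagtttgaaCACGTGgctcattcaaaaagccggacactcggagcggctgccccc
Hmga2, chr10:120476420-120476719, minus strand: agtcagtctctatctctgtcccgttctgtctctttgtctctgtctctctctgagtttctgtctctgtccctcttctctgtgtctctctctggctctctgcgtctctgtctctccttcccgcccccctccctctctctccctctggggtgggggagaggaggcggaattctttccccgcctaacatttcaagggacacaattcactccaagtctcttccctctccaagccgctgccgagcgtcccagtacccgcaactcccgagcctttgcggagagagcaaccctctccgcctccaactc

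Related genes of the let-7 and IGF2BP pathways were counted by list, beside the 16.1% higher and 15.1% lower of all tested genes. The let-7 microRNAs share a seed, bases 2 to 8, which pairs with target messages. It was the same in all 9 mature 5p sequences of the family in RefSeq, of which 3 are printed with the seed in capitals.
let-7a-5p: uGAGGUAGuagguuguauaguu
let-7d-5p: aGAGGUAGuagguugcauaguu
let-7e-5p: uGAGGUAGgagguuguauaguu

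Poly(A) RNA-seq does not measure mature microRNAs, and most let-7 hairpin rows were listed at 0. Of 14 such symbols, 11 were listed at 0 in all 6 libraries, and Mirlet7a-1 and Mirlet7c-1 were each above 0 in 1 library. Mirlet7e had 16.6, 20.2 and 24.2 FPKM in the Nfia libraries and was listed at 0, 81.2 and 60.5 FPKM in the control libraries. Such short models can rest on a few fragments, and no difference is read from them. The let-7b host transcript Mirlet7bhg had 0.649, 0.347 and 0.605 FPKM in the Nfia libraries, against 0.402, 0.222 and 0.409 FPKM in the control libraries, which overlapped.

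Of 16 genes that process let-7 or work with LIN28, 1 rose and 2 fell, and the median difference was 0.00. Msi1, an RNA-binding protein of neural stem cells that brings LIN28A to let-7 precursors, fell to 47.2 ± 3.61 FPKM with Nfia, against 63.9 ± 1.88 FPKM in control (SD, n = 3 each; log2 difference -0.43, adjusted p = 0.00318). Ago1, an Argonaute protein that carries mature microRNAs, fell by 0.31 on the log2 scale (adjusted p = 0.00558). Khsrp, which promotes let-7 processing, rose by 0.16, but its call did not survive leaving out any of the 6 libraries (adjusted p = 0.0690 to 0.126), nor upper-quartile or median-of-ratios scaling. The helicase gene Ddx5 had a difference of -0.18, which did not pass the test (adjusted p = 0.0629) but did with upper-quartile or median-of-ratios scaling (adjusted p = 0.0223 and 0.0440). The core enzymes were not called, with Drosha at a difference of 0.00 and Dicer1 at 0.15 (adjusted p = 0.965 and 0.107).

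Of 22 other known targets of let-7, 21 were tested, 8 rose and 1 fell, and the median difference was 0.14. The cyclin D1 gene Ccnd1 had 305, 308 and 321 FPKM in the Nfia libraries, against 154, 184 and 168 FPKM in the control libraries (log2 difference 0.88, SE 0.07, adjusted p = 0.000488). Myc had 80.5, 74.0 and 78.3 FPKM in the Nfia libraries, against 46.3, 51.7 and 46.4 FPKM in the control libraries (log2 difference 0.68, SE 0.06, adjusted p = 0.000575). In both genes the Nfia libraries stood far above the control libraries. Nr2e1, a nuclear receptor of neural stem cells, rose by 0.33 and the insulin receptor gene Insr by 0.41. The chromatin regulator gene Arid3a fell by 0.42. With upper-quartile scaling 3 genes of the list were lower, and likewise without control 2. Since the list was written with earlier results of these data known, the count is a description.

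**Figure D2:**
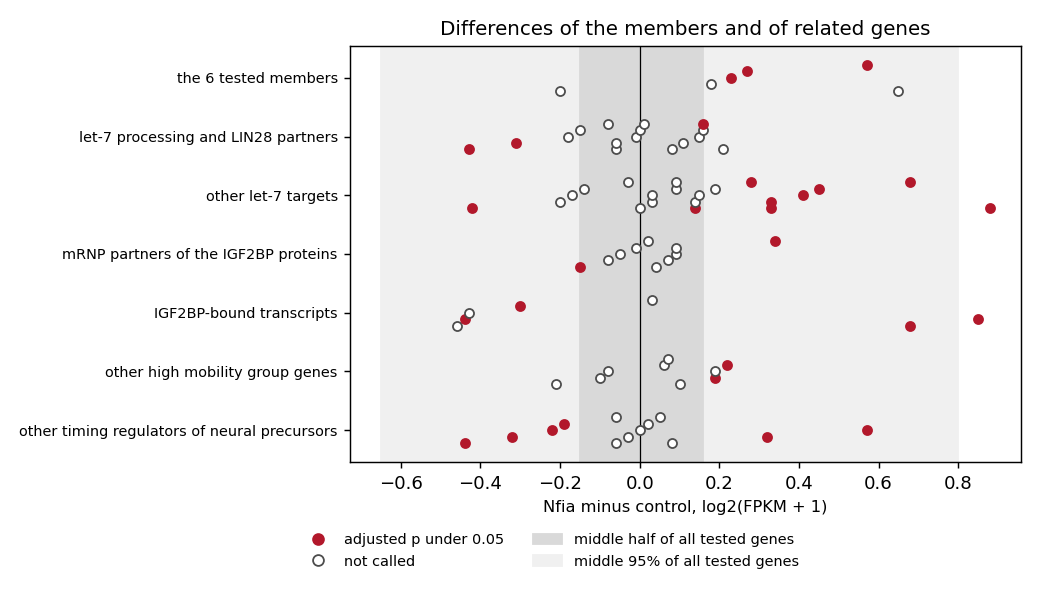
Log2(FPKM + 1) in Nfia minus that in control (horizontal axis) for the 6 tested early-stage genes and 6 lists of related genes, each point a gene and filled points called at an adjusted p under 0.05. The darker band runs from the lower to the upper quartile of all 12537 tested genes (-0.15 to 0.16) and the lighter band covers most of the remainder (-0.65 to 0.80). Ccnd1 (0.88) and Cd44 (0.85) lie beyond the lighter band, and Hmga2 (0.57) lies within it.

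Of 10 genes of proteins found with IGF2BP proteins in messenger ribonucleoproteins, 1 rose and 1 fell, with a median difference of 0.03. Pabpc1, the poly(A)-binding protein, rose to 393 ± 2.79 FPKM with Nfia, against 310.4 ± 11.2 FPKM in control (SD, n = 3 each; log2 difference 0.34, adjusted p = 0.00328). Caprin1, a stress-granule protein, fell by 0.15, with no call in the fits that left out a library (adjusted p = 0.0558 to 0.112). The genes of the RNA-binding partners Syncrip and Dhx9 had differences of 0.09 and -0.08 and were not called.

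Messages known to be bound by IGF2BP proteins went both ways. Of 7, 2 rose and 2 fell, with a median of -0.30. Cd44, the hyaluronan receptor, rose to 21.3 ± 1.68 FPKM with Nfia, against 11.3 ± 0.539 FPKM in control (SD, n = 3 each; log2 difference 0.85, adjusted p = 0.000464), and Myc stands in this list too. The ubiquitin ligase gene Btrc fell by 0.30 and Mapt, the gene of the neuronal protein tau, by 0.44. Without Nfia 2, control 1, control 2 or control 3, 1 gene of this list was called lower, and the call of Mapt ended. Igf2, the message that gave the family its name, had 2.86, 5.24 and 6.12 FPKM in the Nfia libraries, against 5.34, 7.62 and 7.24 FPKM in the control libraries. It was not called (difference -0.46, SE 0.24, adjusted p = 0.182). With the replicate number as a block in the limma fit, Igf2 was called lower (adjusted p = 0.0342). Its imprinted neighbour H19 had 5.78, 11.496 and 8.67 FPKM in the Nfia libraries, against 9.84, 12.3 and 12.9 FPKM in the control libraries, also not called (adjusted p = 0.179).

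Of 9 other high mobility group genes, 2 rose and 0 were called lower by limma. At an unadjusted p under 0.05, 3 were higher and 1 lower, and the share of all tested genes at that threshold was not counted. The 2 called higher were the nucleosome-binding protein genes Hmgn5, by 0.22, and Hmgn3, by 0.19 (adjusted p = 0.0385 and 0.0474). Neither was called with no filter, nor without Nfia 1, Nfia 2, control 2 or control 3. Hmgn3 was also not called without Nfia 3 or with upper-quartile scaling, and Hmgn5 was not called without control 1. Hmgb2 and Hmgb3, DNA-bending proteins of dividing cells, had differences of 0.19 and -0.21 (adjusted p = 0.0516 and 0.0637), and were both near the threshold. Hmgb2 was called higher with a pseudocount of 0.1, at a mean of 5 FPKM or more and without Nfia 3, and Hmgb3 was called lower without Nfia 1 and with upper-quartile or median-of-ratios scaling.

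Other regulators of developmental timing in neural precursors also went both ways, with 2 of 13 higher and 4 lower and a median difference of -0.03. Nfix, an NFI family member, rose to 24.0 ± 3.15 FPKM with Nfia, against 15.9 ± 2.76 FPKM in control, and Dnmt1, the maintenance DNA methyltransferase, rose to 82.5 ± 2.32 FPKM with Nfia, against 66.0 ± 3.99 FPKM in control (SD, n = 3 each). Jarid2, which recruits Polycomb complexes, fell by 0.44 (adjusted p = 0.00121), the nuclear receptor gene Nr2f2 by 0.32, Sox9, a factor of the glial switch, by 0.22 and Rnf2, the Polycomb ubiquitin ligase, by 0.19. The call of Nfix ended without Nfia 2, Nfia 3 or control 3, and that of Nr2f2 without control 1 or control 3. Sox9 was not called with no filter, nor without Nfia 1, Nfia 2, Nfia 3, control 2 or control 3. Rnf2 was not called without Nfia 1, Nfia 2, Nfia 3, control 1 or control 3. The count of genes called lower was 2 without Nfia 1, Nfia 2, Nfia 3 or control 1, and 1 without control 3. Cdkn2a, a cell cycle inhibitor gene that HMGA2 is known to keep low in young neural stem cells, had a difference of 0.08. Cdkn2b, also a cell cycle inhibitor gene, had a difference of 0.00. Neither was called (adjusted p = 0.647 and 0.988).

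Markers of the precursors themselves and of other cell types were counted in the same way, beside the 16.1% higher and 15.1% lower of all tested genes. Of the 9 precursor markers 3 rose, Nes by 0.71, Hes1 by 0.53 and Vim by 0.37 on the log2 scale, and 3 fell, Pax6 by 0.65, Hes5 by 0.57 and Sox1 by 0.49. The call of Vim ended with no filter and without Nfia 1, Nfia 2, control 1, control 2 or control 3, and that of Hes5 without Nfia 2, control 1 or control 2. The part of these shifts in the early-stage genes was not tested. Of 8 neuron markers, 7 fell and 0 rose. All 8 had every Nfia library below every control library, a pattern found in 22.9% of all tested genes. Their summed level was 800 to 823 FPKM in the Nfia libraries and 1355 to 1467 FPKM in the control libraries, while none of the 8 was at 0. In such bulk samples fewer neurons and less neuronal RNA per cell cannot be told apart, and the part of this shift in the rise of Igf2bp2, Igf2bp3 and Hmga2 was not tested. Of 8 mesenchymal or meningeal markers, 6 were tested and 0 were called in either direction by limma. At an unadjusted p under 0.05 there were also 0, and the share of all tested genes at that threshold was not counted. The sum of the 8 markers separated the replicates instead of the groups. It was 5.76, 18.6 and 17.8 FPKM in the Nfia libraries and 6.61, 16.1 and 16.3 FPKM in the control libraries, lowest in the first replicate of each group, and none of the markers was at 0 in all libraries. Hmga2, Igf2 and H19 were likewise lowest in both first replicates. Igf2 and H19 were named after their values were seen, and how many of all tested genes share this pattern was not counted. Whether Hmga2 follows these markers was not tested.

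Without both first replicates, an alternative chosen after seeing these sums, the difference of Hmga2 was 0.60 and remained called (adjusted p = 0.0248). Igf2bp2 and Igf2bp3 then had differences of 0.25 and 0.24 and were not called (adjusted p = 0.0966 and 0.0592), in a fit of 2 libraries against 2. So 1 of the 6 tested genes was called higher, and the share of all genes called in that fit was not counted. Endothelial markers summed to 2.01 to 2.95 FPKM in the Nfia libraries and 3.28 to 4.61 FPKM in the control libraries, with 1 of 6 tested, Cldn5, which fell by 0.61. Microglia markers summed to 1.39 to 2.06 FPKM in the Nfia libraries and 1.77 to 2.33 FPKM in the control libraries.

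**Figure D3:**
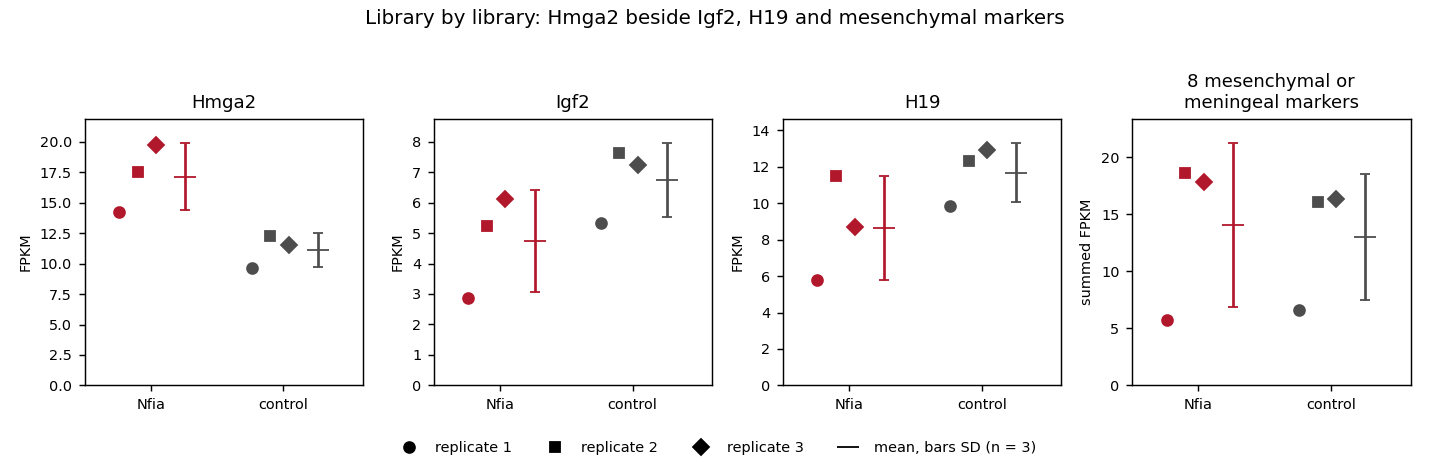
FPKM (vertical axes, each starting at 0) of Hmga2, Igf2, H19 and the sum of 8 mesenchymal or meningeal markers in the Nfia and control libraries, with a point for each library, its shape giving the replicate number, and a dash and bars for mean and SD (n = 3). The first replicate is the lowest of its group in each panel, and only Hmga2 has all Nfia points above all control points.

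The genes whose profile over the 6 libraries was most like that of a called member were found by the root mean square difference of log2(FPKM + 1), each gene centred on its own mean. For Hmga2 these were Npas3 (0.0337), Creb3l1 (0.0486) and Rreb1 (0.0511). Npas3 had 17.9, 22.0 and 23.9 FPKM in the Nfia libraries, against 12.3, 16.0 and 14 FPKM in the control libraries. It shared with Hmga2 the low first replicates as well as the rise. For Igf2bp2 the nearest were Ogdh (0.0114), Ralgapa2 (0.0144) and Pigt (0.0176), and for Igf2bp3 they were Tubb4b (0.0143), Cenpn (0.0179) and Rps6ka3 (0.0181). With 6 libraries and 12537 genes such closeness is a description of these profiles.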

How the data were processed

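Poly(A) RNA-seq of 3 Nfia-transduced and 3 control libraries of mouse NS/PCs was analysed, and the Flag ChIP and IgG ChIP samples were not analysed here. A kit that keeps strand was used, per the labels' protocols. The deposited values are FPKM, 1 per symbol. The files have no header, so the unit was read from the values and from the tools. In alphabetical order, with no role given, the submitters' processing notes list Bowtie (version 1), Cuffdiff, Cufflinks, MACS (version 1.4), SAMtools and TopHat, and the build mm10. No source used here gives the annotation or says if strand was used in counting.

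The deposited FPKM were not rescaled. log2(FPKM + 1) was fitted in limma 3.58.1 under R 4.3.3 (lmFit, eBayes with a variance trend, two-sided), for genes averaging 1 FPKM or more over the 6 libraries. The same kind of fit was also run on simulated data built from the means and spread of these libraries. Its outcome is not given here. Fits without a library used the same 12537 genes. With 3 against 3 libraries an exact permutation p is at least 0.1, so none is given. Named from each list were up to 4 tested genes, taken in order of adjusted p, plus every gene behind a count of 5 or fewer. Drosha, Dicer1, Igf2, H19, Cdkn2a, Cdkn2b, the precursor markers, Malsu1, 9230105E05Rik, Hmga2-ps1 and the let-7 rows were added after their values were seen. Nearest profiles leave out predicted genes and small RNAs. Some rows are not reported here. The genes and lists were chosen with earlier results of these data known. Gene positions, promoters and microRNAs are from RefSeq tables of GRCm38.p6, matched by symbol, or by synonym for Mirlet7bhg. Alternatives were another pseudocount, filters and scalings, the replicate number as a block, and left-out libraries.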

Additional observations from a re-analysis of the deposited data

How the results depend on the processing

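The 6 tested early-stage genes kept their direction under a pseudocount of 0.1, no filter, a mean of at least 5 FPKM (where Lin28b was not tested), upper-quartile and median-of-ratios scaling, the replicate block and each left-out library. The call of Igf2bp3 held under all of these. Those of Igf2bp2 and Hmga2 held under all but some of the left-out libraries. The cause of each change below was not tested. Without 1 library, the difference of Hmga1 ranged from 0.49 to 0.92, of Hmga2 from 0.47 to 0.70 and of Igf2bp2 from 0.23 to 0.31, and 2 to 3 of the genes were called higher. With the filter taken over the 5 remaining libraries, chosen after seeing the data, Hmga1 passed without control 3 (0.92), Hmga2 missed without Nfia 2 (0.55) and Igf2bp2 missed without control 3 (0.25). Without both first replicates, 1 of the 6 tested genes was called higher, with no share of all genes counted for that fit. Igf2bp2 at 0.25, Igf2bp3 at 0.24 and Lin28a, unfiltered, at -0.30 were then not called. With no filter and all libraries, 1 gene was called lower, Lin28a. Of all genes, 1290 to 1625 were higher and 1251 to 1572 lower without 1 library, against 2020 and 1898 with all; upper-quartile scaling gave 1691 higher and 2242 lower and moved the median of all genes to -0.022. The let-7 processing list had 0 higher with no filter, at 5 FPKM and under both scalings, and 0 to 1 without a library. The let-7 targets had 3 lower under upper-quartile and 2 under median-of-ratios scaling, and 1 to 3 without a library. The IGF2BP partners had 0 lower with no filter, with the replicate block and in every fit that left out a library. The IGF2BP-bound messages had 1 to 2 lower without a library. The other high mobility group genes had 0 higher with no filter, 1 under upper-quartile scaling and 0 to 2 without a library, with 1 lower under both scalings and the block and 0 to 1 without a library. The other timing regulators had 1 to 2 higher and 1 to 3 lower without a library. Deviations of libraries with the same replicate number correlated at 0.0264, -0.00578 and 0.0461, not above those of other pairs (-0.103 to 0.0799). The numbers were thus not taken as pairing, but a correlation over all tested genes cannot tell whether some genes follow the replicate number. The replicate block gave 2130 genes higher and 1916 lower and changed the call of none of the early-stage genes. Of the named genes of the lists, the block gained the calls of Igf2 (lower, adjusted p = 0.0342), Ddx5 (lower, 0.0253), Hmgb2 (higher, 0.0415) and Hmgb3 (lower, 0.0472) and lost those of Sox9 (0.0531), Hmgn3 (0.0657) and Caprin1 (0.0509). Since the files hold no counts, no limit of detection can be given for Lin28a and Trim71.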
